A study of Rattus norvegicus with 12 samples.

Results

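The collagen genes were described here, taken as every gene whose single symbol in the platform annotation is Col, a number, the letter a and a number. There were 41 such genes of 14218 with a single symbol, read by 58 probe sets, and each gene was represented by its probe set with the highest mean signal over the 12 arrays. They fell into 11 fibrillar genes, 7 basement membrane genes and 23 others. The kidney samples were taken from rats on embryonic day 13 (E13; 3 arrays), on embryonic day 18 (E18; 4 arrays) and at week 4 of postnatal life (Wk4; 3 arrays). Recombined tissue (2 arrays) joined ureteric buds that had formed in vitro and had not branched with metanephric mesenchyme, cultured for 6 days; the bud makes the collecting ducts and the mesenchyme the nephrons. The embryonic kidneys went from dissection straight to processing. The labels name no strain, sex, pooling or transgene, and do not say whether replicates were separate animals or cultures, so the p-values reflect scatter among these arrays only, part or all of which may be technical. The study asked whether tissue assembled this way follows the course of the kidney in vivo.

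Collagens are secreted proteins whose chains wind into a triple helix of glycine-rich repeats. Fibrillar collagens assemble into the cables of the interstitium and give tissue its tensile strength. Type IV collagens form the sheet-like network of basement membranes, and in the kidney the embryonic network of α1 and α2 chains is joined by one of α3, α4 and α5 chains as the glomerular filter matures. Other collagens decorate fibrils, form beaded filaments around cells, or cross the plasma membrane.

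Below, a level is the deposited probe set signal, given as mean ± SD, and differences, given ± SE, are between group means of log2(signal + 271). The 40th percentile of an array, which served as the limit for low signals, lay between 503 and 671. A gene was called in a comparison when limma's adjusted p was under 0.05 and the change at least 3-fold; rose and fell are used of called genes. Of the 41 genes, 35 passed the filter on low signals, and the other 6 stay in every count as not tested. Of the 35, Col4a4 passed through the Wk4 arrays alone and Col6a5 through the recombined arrays alone, so each had to be high there, and their calls, which the counts include, are no support for a difference. The arrays were alike in scale, with medians between 799 and 1020. The E13 and E18 arrays were split into 2 sets by the sign of the main component of their residuals. This component held 47.7% of the residual variance, and the rule gives 2 sets for any arrays. E13 replicate 1 went with E18 replicates 1 to 3, and E13 replicates 2 and 3 with E18 replicate 4. What these sets are was not tested. E13 replicate 1 was the highest E13 array for 24 of the 41 collagen genes (58.5%, against 37.8% of all probe sets). E18 replicate 4 was the highest E18 array for 4 of them (9.76%, against 28.7%). Wk4 replicate 1 was the highest of its group for 26 of them (63.4%, against 37.7%).

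In the embryonic kidney the step from E13 to E18 brought more collagen genes up than down: 7 of 41 rose and 1 fell, where 1.93% of all tested probe sets were called higher and 0.407% lower. Those that rose were Col1a1, the 3 main type VI chains Col6a1, Col6a2 and Col6a3, the fibril-associated Col12a1 and Col14a1, and Col8a2; Col9a1 fell. From E18 to Wk4 the balance turned, with 1 of 41 higher and 10 lower, against 5.76% and 5.43% of all tested probe sets. From E13 to Wk4, 3 rose and 5 fell, against 9.39% and 8.46%. Recombined tissue had 12 of 41 higher and 3 lower than E13 (3.95% and 0.912% of all), 8 higher and 0 lower than E18 (2.73% and 1.67%), and 19 higher and 1 lower than Wk4 (7.88% and 7.32%). Beside the count of 0, 5 genes were lower than at E18 at a limma adjusted p under 0.05, each by less than 3-fold. Counts depended most on the pseudocount: with 4 times its value 6 genes were lower at Wk4 than at E18, and 3 were higher in recombined tissue than at E18 and 13 than at Wk4. Genes that lost at least 1 call in this way were Col2a1, Col4a4, Col4a6, Col5a1, Col6a2, Col6a5, Col8a1, Col9a3, Col12a1, Col13a1, Col16a1, Col24a1, Col25a1 and Col26a1. With arrays centred on their medians the count above E18 was 5. Over all 41 genes, tested or not, the median difference was 0.23 for E18 against E13 and -0.90 for Wk4 against E18. For recombined tissue it was 0.77 against E13, 0.33 against E18 and 1.40 against Wk4, while the median of all probe sets stayed between -0.04 and 0.12 in the 6 comparisons. Comparisons that share a group share its arrays, so these counts are not independent of each other.

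**Figure D1:**
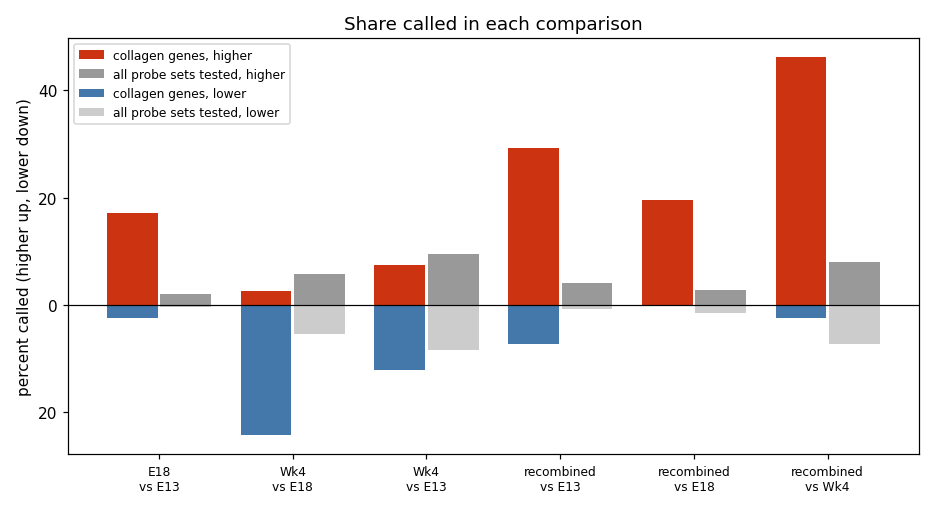
Share of the 41 collagen genes (coloured bars) and of all tested probe sets (grey bars) called in each of the 6 comparisons, in percent, with genes called higher drawn upward and genes called lower drawn downward. The tallest bar is recombined tissue against Wk4, where 46.3% of the collagen genes were called higher, and the deepest is Wk4 against E18, where 24.4% were called lower.

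For 16 of the 41 genes (39%) both recombined arrays lay above all 10 kidney arrays, and for 0 both lay below all 10. Among all probe sets 8.93% lay above and 4.3% below in this way. The 16 comprised 7 fibrillar genes, among them the untested Col11a2, 9 others and 0 basement membrane genes. Beside the 8.93% of all probe sets, a count of 0 in 7 basement membrane genes does not set that class apart. In bulk tissue, more cells of a type and more RNA per cell cannot be told apart.

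**Figure D2:**
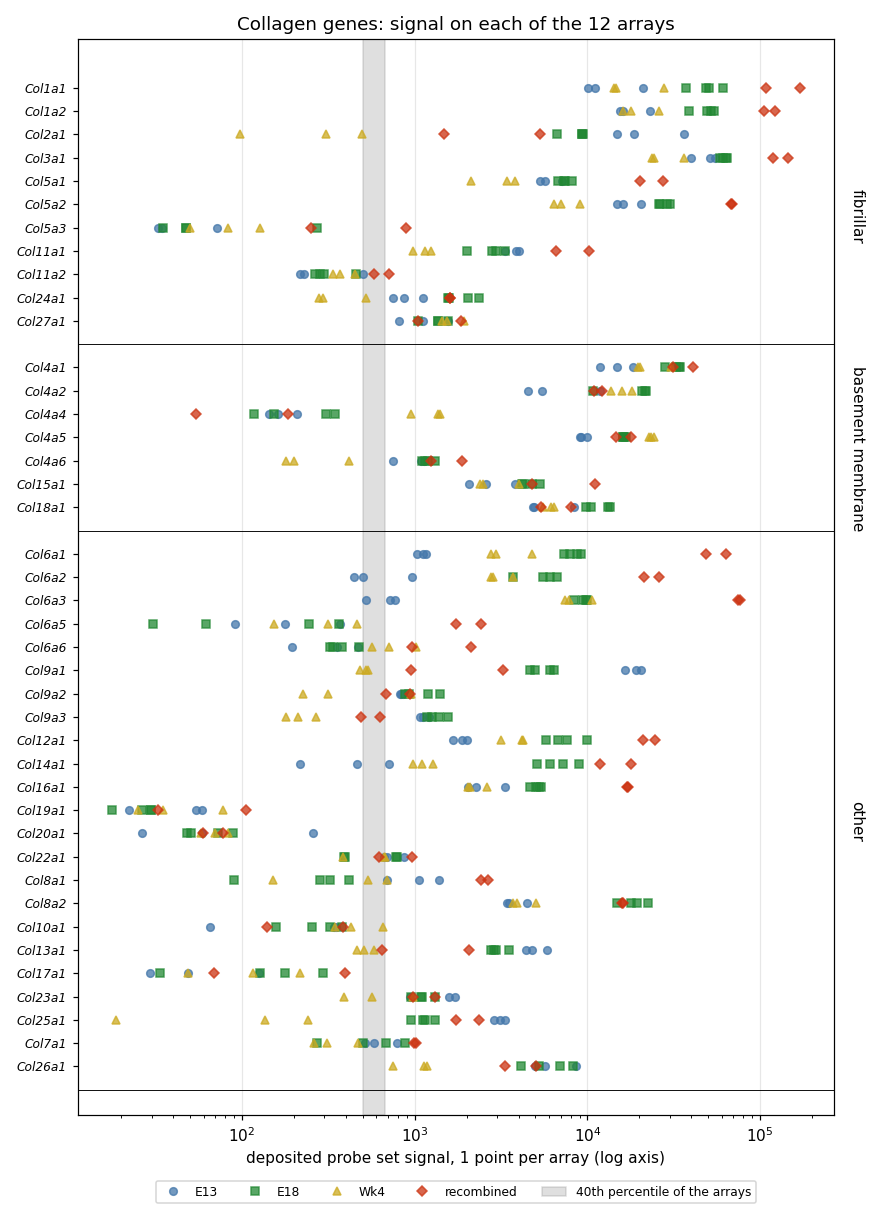
Deposited signal of each collagen gene (rows, by class) on each of the 12 arrays (points, log axis), with the range of the arrays' 40th percentiles shaded. Recombined arrays (red) lie to the right of all kidney arrays for 16 genes, among them Col6a1, Col6a2 and Col6a3, and Wk4 arrays (yellow) lie far to the left for Col2a1 and Col25a1. Signals of different genes come from different probes and are not comparable with each other.

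Of the 11 fibrillar genes, recombined tissue had 4 higher and 1 lower than E13 (3.95% and 0.912% of all tested probe sets). Against E18 it had 1 higher and 0 lower (2.73% and 1.67%), and against Wk4 7 higher and 0 lower (7.88% and 7.32%). Col1a1 encodes a chain of type I collagen, the main protein of scar and connective tissue. It read 20838, 10048 and 11111 at E13, and 60797, 48776, 50853 and 37253 at E18. At Wk4 it read 27871, 14300 and 14571, and in recombined tissue 107290 and 170000. E13 and E18 did not overlap, and both recombined arrays stood above every kidney array. Wk4 replicates 2 and 3 lay within the E13 range, and Wk4 replicate 1 lay between the E13 and E18 ranges. The difference from E13 was 1.85 ± 0.27 at E18 (limma adjusted p = 0.000206) and 3.32 ± 0.33 in recombined tissue (adjusted p = 4.03e-06). With the embryonic array set as a covariate the E18 difference was 1.55 and was no longer called.

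Col1a2, the partner chain of Col1a1, had its highest and lowest groups in common with it, and its promoter is shown as that of a type I chain. It read 22969, 15966 and 15366 at E13, 53695, 49029, 51794 and 38455 at E18, 25873, 15991 and 17864 at Wk4, and 105355 and 121917 in recombined tissue. Its E18 gain of 1.41 ± 0.17 (limma adjusted p = 4.28e-05) stayed under 3-fold, while recombined tissue exceeded E13 by 2.65 ± 0.21 (adjusted p = 5.15e-07). The 250 bases before its start, from RefSeq (GRCr8, chr4:33518307-33518556, plus strand), carry in capitals a reverse match to the CCAAT box that begins 221 bases before the start and a TATAAA that begins 170 bases before it.
Col1a2: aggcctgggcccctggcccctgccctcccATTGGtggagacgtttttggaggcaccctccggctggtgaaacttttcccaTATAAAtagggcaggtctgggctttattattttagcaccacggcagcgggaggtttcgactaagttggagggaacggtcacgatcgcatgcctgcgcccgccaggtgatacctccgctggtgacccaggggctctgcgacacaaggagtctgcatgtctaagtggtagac
Of 33469 RefSeq promoter windows of this length, 34% hold CCAAT and 12.9% TATAAA on either strand. Of the 41 collagen genes 32 had a promoter in the table, and 9 of these held CCAAT, 4 TATAAA and 18 the GC box GGGCGG, which 30.5% of all windows hold.

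The minor fibrillar chains of type V, which start fibrils and limit their width, were likewise highest in culture. Col5a2 read 20361, 14881 and 16161 at E13, 25882, 29046, 30062 and 26452 at E18, and 9012, 6435 and 7062 at Wk4. In recombined tissue it read 67580 and 68918. The 4 groups did not overlap at any point. It fell from E18 to Wk4 (-1.87 ± 0.13, limma adjusted p = 1.49e-08) and recombined tissue exceeded Wk4 by 3.15 ± 0.15 (adjusted p = 4.82e-10). Col5a1 read 7111, 5682 and 5295 at E13 and 8190, 7354, 7409 and 6751 at E18, which overlapped. It then read 3814, 2128 and 3445 at Wk4, below all embryonic arrays, and 27217 and 20124 in recombined tissue, above all others. Its difference from E18, 1.62 ± 0.20 (adjusted p = 3.32e-05), lay close to the 3-fold limit and was 1.41 without recombined replicate 1, 1.58 without E18 replicate 4 and 1.52 with median centring, each uncalled. Col3a1, the reticular fibre collagen that accompanies type I, went from 48437 ± 7776 (SD, n = 3) at E13 to 61823 ± 2656 (n = 4) and 28027 ± 7127 (n = 3) at Wk4. It reached 131714 ± 19185 (n = 2) in recombined tissue, called only against Wk4 (2.24 ± 0.17, adjusted p = 7.22e-08).

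Col2a1, the fibrillar collagen of cartilage, also made in other embryonic tissues, ran the other way. It read 36127, 18570 and 14752 at E13, 9477, 9283, 9298 and 6674 at E18, 97.9, 498 and 306 at Wk4, and 1484 and 5343 in recombined tissue. The stages did not overlap, and the recombined arrays lay between E18 and Wk4, far from each other. The gene fell from E18 to Wk4 (-4.02 ± 0.37, limma adjusted p = 3.32e-07) and was lower in recombined tissue than at E13 (-2.79 ± 0.44, adjusted p = 0.000243). Its E18 minus E13 difference of -1.29 ± 0.37 (adjusted p = 0.0226) was under 3-fold. Recombined tissue exceeded Wk4 by 2.52 ± 0.44 (adjusted p = 0.000215), or by 1.19 and uncalled with the gene's probe sets averaged. Its other 2 probe sets gave the same directions, with -0.98 and -1.60 for E18 against E13 and -0.76 and -0.91 for Wk4 against E18. Col11a1, which copolymerizes with type II in cartilage and with type V elsewhere, also had lower means at each later kidney stage but differed from Col2a1 in recombined tissue. Its levels were 3742 ± 349 at E13, 2778 ± 551 at E18, 1122 ± 133 at Wk4 and 8384 ± 2505 in recombined tissue, above all kidney arrays (2.61 ± 0.21 against Wk4, adjusted p = 1.14e-07). Col24a1 fell from 1882 ± 394 at E18 to 365 ± 134 at Wk4 (-1.76 ± 0.19, adjusted p = 2.17e-06), and Col27a1, between 1165 ± 382 and 1640 ± 260 in the kidney stages, was called in none of the 6 comparisons.

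Col9a1, a fibril-associated chain that coats type II fibrils, went with Col2a1. It read 20417, 19185 and 16508 at E13, 4631, 4983, 6385 and 6039 at E18, 540, 522 and 480 at Wk4, and 952 and 3237 in recombined tissue. It fell at both steps (-1.72 ± 0.26, limma adjusted p = 0.000228, and -2.87 ± 0.26, adjusted p = 2.62e-07), and no pair of kidney stages overlapped. Recombined tissue was below E13 (-3.19 ± 0.31, adjusted p = 3.37e-06), and in both genes recombined replicate 2 was the higher array. The other type IX chains held other courses: Col9a3 fell from E18 to Wk4 (1345 ± 168 to 219 ± 44.1, -1.72 ± 0.16, adjusted p = 4.81e-07) and Col9a2, 838 ± 14.8 at E13 and 1097 ± 243 at E18, was called in none of the 6. Of 7 measured cartilage markers 3 passed the filter on low signals. The summed signal of the 7 ran from 3631 to 5331 at E13, 2789 to 3195 at E18, 4326 to 5937 at Wk4 and 3720 to 4097 in recombined tissue. At E13 the cartilage proteoglycan gene Acan averaged 412, Comp 329, Matn1 348, Cnmd 97.8 and Chad 95.4, all under 503. The part of cartilage cells in the Col2a1 and Col9a1 values was not tested. Hapln1, which links hyaluronan to proteoglycans, went from 2612 ± 636 to 1090 ± 103 and to 323 ± 123 at Wk4 (Wk4 against E13 -2.28 ± 0.21, adjusted p = 2.81e-07). Matn1, a cartilage matrix protein, went the other way, from 354 ± 168 at E18 to 3349 ± 913 at Wk4 (2.54 ± 0.27, adjusted p = 1.75e-06).

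**Figure D3:**
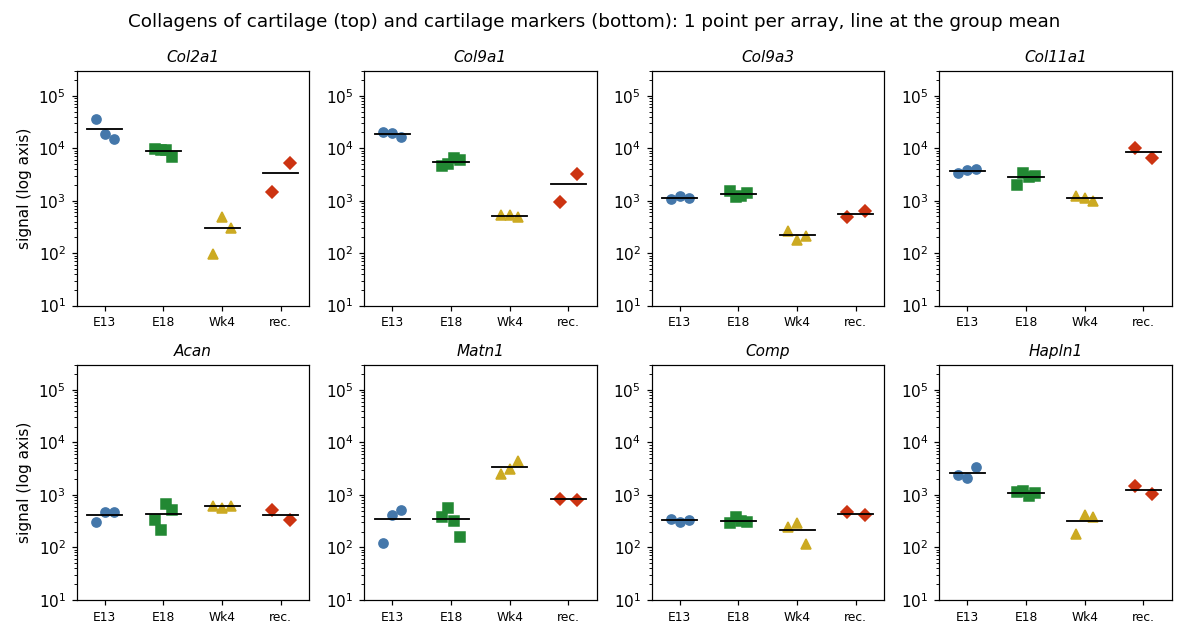
Signal (log axis) on each array of the cartilage-associated collagens Col2a1, Col9a1, Col9a3 and Col11a1 (top row) and of the cartilage markers Acan, Matn1, Comp and Hapln1 (bottom row) in E13, E18, Wk4 and recombined tissue (rec.), with lines at group means. Col2a1 and Col9a1 step down with each kidney stage, Hapln1 is lowest at Wk4, Matn1 is highest there (mean 3349), Acan and Comp have group means from 215 to 601, and Col11a1 is highest in recombined tissue.

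Among the 7 basement membrane genes, between E13 and E18 0 were called by limma, where 1.93% of all tested probe sets were called higher and 0.407% lower, so a count of 0 in 7 genes does not set the class apart. Of the 7, 5 had an unadjusted and 4 an adjusted limma p under 0.05, all with higher values at E18 and changes under 3-fold. The median difference was 0.78. Recombined tissue had 0 of 7 called against E13 (5 at an unadjusted and 3 at an adjusted limma p under 0.05). Against E18 it had 0 of 7 called (2 at an unadjusted and 1 at an adjusted limma p under 0.05). The medians were 0.77 and -0.01. Shares over all probe sets were 3.95% higher and 0.912% lower against E13, and 2.73% and 1.67% against E18. Col4a1 and Col4a2 encode the chains of the general type IV network and lie head to head, so that 76 bases separate their starts. That shared stretch from RefSeq (GRCr8, chr16:84885521-84885596, written on the plus strand, on which Col4a1 is read) is shown with its match to the GC box GGGCGG, on the reverse strand and 16 bases before the Col4a1 start, in capitals.
Col4a1 and Col4a2: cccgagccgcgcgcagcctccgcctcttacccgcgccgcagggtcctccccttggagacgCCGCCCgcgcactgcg
Of all promoter windows of this length, 18.1% hold GGGCGG, while CCAAT (13%) and TATAAA (4.61%) are not in this one.

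Col4a1 went from 15004 ± 3233 (SD, n = 3) at E13 to 32280 ± 2835 (n = 4) at E18, 23342 ± 6010 (n = 3) at Wk4 and 36051 ± 6506 (n = 2) in recombined tissue. Col4a2 went from 7289 ± 4014 to 18718 ± 5322 and 15861 ± 2175, but stood at 11541 ± 798 in recombined tissue. Both were higher at E18 than at E13, by 1.11 ± 0.17 (limma adjusted p = 0.000258) and 1.40 ± 0.29 (adjusted p = 0.00283), under the 3-fold limit. For Col4a2 the arrays split by embryonic set, with E13 replicate 1 at 11895 against 5430 and 4542, and E18 replicate 4 at 10769 against 20668 to 21818. The E13 and E18 ranges of Col4a2 therefore overlapped, while those of Col4a1 did not. Recombined tissue exceeded E13 by 1.26 ± 0.20 in Col4a1 (adjusted p = 0.000266) and by 0.77 ± 0.34 in Col4a2 (adjusted p = 0.107); the difference between these was not tested. A second Col4a1 probe set of similar brightness gave 0.70 against E13 and -0.22 against E18, close to Col4a2's value against E13.

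Col4a4, a chain of the mature glomerular network, passed the 40th percentile on the Wk4 arrays alone. It read 161, 144 and 208 at E13, 154, 346, 117 and 307 at E18, 950, 1394 and 1361 at Wk4, and 186 and 54.5 in recombined tissue. The Wk4 arrays lay above all others, and the remaining groups overlapped. Since the gene entered the test only through its high Wk4 arrays, its differences are given as a description, with no test: 1.60 for Wk4 against E18 and -1.95 for recombined tissue against Wk4. The first stood close to the 3-fold limit and went below it without E18 replicate 1 (1.53), E18 replicate 3 (1.48), Wk4 replicate 2 (1.52) or Wk4 replicate 3 (1.53), and with 4 times the pseudocount (0.82). Col4a3, its partner chain, was not analysed here; 412 bases separate the starts of the pair in RefSeq. The 250 bases before the Col4a4 start (GRCr8, chr9:91323578-91323827, minus strand) are shown because Col4a4 marks the mature network, and they hold none of the 3 motifs above.
Col4a4: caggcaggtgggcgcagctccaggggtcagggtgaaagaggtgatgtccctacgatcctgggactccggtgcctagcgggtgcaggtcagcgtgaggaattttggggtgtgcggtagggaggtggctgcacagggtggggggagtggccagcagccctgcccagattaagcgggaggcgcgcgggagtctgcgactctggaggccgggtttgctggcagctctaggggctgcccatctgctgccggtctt
Podocytes, the cells that make this network, had 3 of 6 measured markers higher at E18 than at E13 (1.93% of all tested probe sets). Their slit diaphragm gene Nphs1 averaged 66.4 at E13, 2506 at E18, 1539 at Wk4 and 188 in recombined tissue. The summed podocyte signal was 9095 to 10272 in recombined tissue and 6776 to 8761 at E13. It was 18074 to 21540 at E18 and 22503 to 25227 at Wk4. Synpo alone averaged 6162 ± 993 in recombined tissue and 4312 ± 436 at E13, while Podxl went the other way, with 1391 ± 593 and 2870 ± 547. Between recombined tissue and E13, 0 of the 6 were called (3.95% of all tested probe sets higher and 0.912% lower). The part of podocytes in the Col4a4 values was not tested.

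Col4a5, which joins both the glomerular and the epithelial networks, was higher at each later stage with little spread, at 9402 ± 507, 16269 ± 306 and 23401 ± 800. Neither step reached 3-fold, at 0.78 ± 0.09 (limma adjusted p = 3.07e-05) and 0.52 ± 0.09 (adjusted p = 0.000244), and no stages overlapped. Recombined tissue, at 16262 ± 2346, differed from E18 by -0.01 ± 0.10 (adjusted p = 0.967). Col4a6, a chain of epithelial basement membranes, lies head to head with Col4a5 (1414 bases between the starts in RefSeq's promoter table). Col4a6 went the other way from Col4a5 between E18 and Wk4. It read 1095, 745 and 1127 at E13, 1190, 1307, 1106 and 1154 at E18, 199, 181 and 419 at Wk4, and 1870 and 1249 in recombined tissue. The Wk4 arrays lay below all others, with a difference from E18 of -1.47 ± 0.20 (adjusted p = 2.08e-05), under 3-fold. Recombined tissue exceeded Wk4 by 1.77 ± 0.24 (adjusted p = 2.12e-05), or by 1.53 and uncalled without recombined replicate 1 and by 0.96 with 4 times the pseudocount. Col15a1 and Col18a1, proteoglycan-like collagens at the edge of basement membranes, were called in none of the 6 comparisons. Col18a1 had its highest mean at E18 (11737 ± 1889, against 6013 ± 1991 at E13 and 6027 ± 440 at Wk4), and the recombined arrays of Col15a1 were 11033 and 4776, the first above all kidney arrays and the second within the E18 range.

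**Figure D4:**
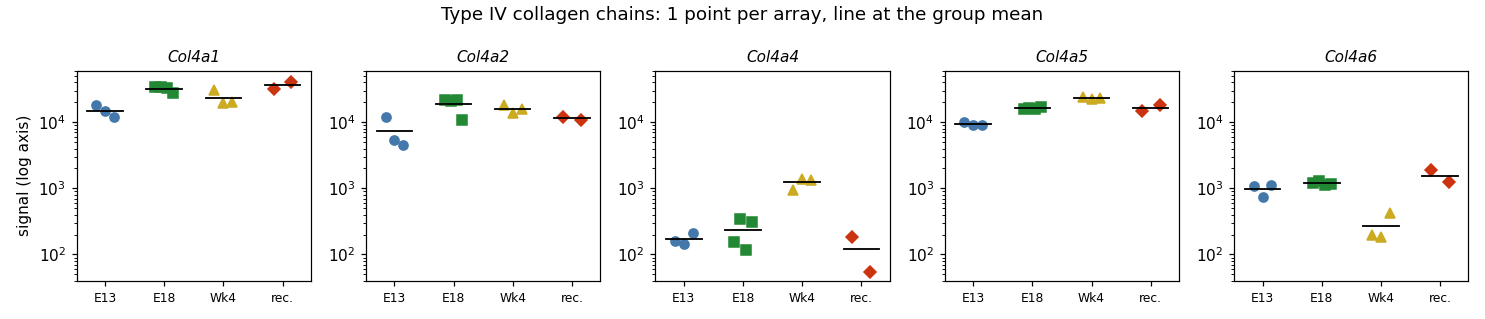
Signal (log axis) on each array of the 5 type IV chains measured, in E13, E18, Wk4 and recombined tissue (rec.), with lines at group means. Col4a4 is high at Wk4 alone, Col4a5 goes from 9402 to 23401 between E13 and Wk4, and Col4a6 drops at Wk4 to a mean of 266.

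Type VI chains, whose beaded filaments tie cells to the surrounding matrix, included Col6a3, the collagen with the widest range of group means. It read 724, 520 and 770 at E13, 9370, 9912, 9807 and 8374 at E18, 10694, 7462 and 7850 at Wk4, and 74352 and 76806 in recombined tissue. E18 and Wk4 overlapped (-0.12 ± 0.14, limma adjusted p = 0.477), E13 lay far below them, and the recombined arrays lay far above, by 2.98 ± 0.16 against E18 (adjusted p = 1.5e-08). A second, much dimmer probe set of Col6a3 had means of 295 at E13, 654 at E18, 1270 at Wk4 and 7955 in recombined tissue. It gave 0.63 for E18 against E13, 0.80 for Wk4 against E18 and 2.80 for recombined tissue against E18. The 250 bases before the Col6a3 start are shown because its brighter probe set had that widest range (RefSeq, GRCr8, chr9:98886959-98887208, minus strand). None of the 3 motifs is in them.
Col6a3: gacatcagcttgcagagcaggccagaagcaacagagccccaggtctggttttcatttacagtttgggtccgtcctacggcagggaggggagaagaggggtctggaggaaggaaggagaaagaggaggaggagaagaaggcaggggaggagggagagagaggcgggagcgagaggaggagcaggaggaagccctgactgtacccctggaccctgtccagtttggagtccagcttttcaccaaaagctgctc
Col6a1 read 1122, 1164 and 1031 at E13, 7289, 7875, 9184 and 8708 at E18, 4790, 2752 and 2959 at Wk4, and 63524 and 48774 in recombined tissue. No groups overlapped. It rose to E18 by 2.63 ± 0.17 (adjusted p = 7.04e-08), its Wk4 minus E18 difference of -1.21 ± 0.17 was under 3-fold, and recombined tissue exceeded E18 by 2.72 ± 0.19 (adjusted p = 2.01e-07).

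Col6a2 read 966, 503 and 445 at E13, 6070, 5504, 6662 and 3723 at E18, 3716, 2759 and 2853 at Wk4, and 26025 and 21197 in recombined tissue. It rose to E18 by 2.68 ± 0.21 (limma adjusted p = 6.53e-07), and recombined tissue exceeded E18 by 2.07 ± 0.24 (adjusted p = 2.18e-05). A second, much dimmer probe set of Col6a2 (means of 224 at E13 and 142 at E18) gave -0.24 for the E18 step and 1.65 for recombined tissue against E18. It was the single opposite direction among the 44 such checks of called differences in other probe sets. These checks compared direction alone, and sizes could differ. A Col12a1 probe set under the filter gave 0.06 for E18 against E13 where the chosen one gave 1.85. For Col1a1 the same comparison gave 1.79 in the other probe set and 1.85 in the chosen one. With the probe sets averaged the E18 step of Col6a2 was 1.22 and not called. Col6a5, a chain that can replace the α3 chain, was low in all kidneys, with a highest array of 464, and read 2429 and 1745 in recombined tissue, the group through which alone it passed the filter; its difference from E18, 2.45, is a description with no test. Col6a6 gave 1548 ± 815 in recombined tissue and 763 ± 234 at Wk4, with differences under 3-fold in all 6 comparisons.

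Fibril-associated collagens sit on the surface of fibrils and link them to their surroundings. Col14a1 read 712, 218 and 461 at E13, 6093, 8898, 7195 and 5094 at E18, 1281, 1098 and 972 at Wk4, and 11858 and 17812 in recombined tissue. It rose by 3.30 ± 0.23 (limma adjusted p = 2.14e-07) and fell again (-2.33 ± 0.23, adjusted p = 9.17e-07), with no overlap of the groups. Col12a1 read 1872, 2012 and 1660 at E13, 7652, 9918, 6757 and 5718 at E18, 4168, 3159 and 4255 at Wk4, and 24732 and 20950 in recombined tissue. It rose to E18 by 1.85 ± 0.17 (adjusted p = 2.13e-06) but was under 3-fold with its 3 probe sets averaged, and was higher in recombined tissue than at E13 by 3.45 ± 0.20 (adjusted p = 2.91e-08). Its margin over E18, 1.59 ± 0.19 (adjusted p = 2.57e-05), sat on the 3-fold limit and was not called without E18 replicate 3 (1.55), E18 replicate 4 (1.48) or recombined replicate 1 (1.47).

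Col16a1 read 3326, 2268 and 2030 at E13, 5065, 5379, 5245 and 4677 at E18, 2611, 2030 and 2078 at Wk4, and 16952 and 17088 in recombined tissue. E13 and Wk4 overlapped, and recombined tissue exceeded E18 by 1.69 ± 0.17 (limma adjusted p = 5.58e-06), or by 1.58 and uncalled with median centring. Col22a1, a collagen of tissue junctions, averaged between 576 and 793 in all groups and was called in none of the 6 comparisons. The network-forming type VIII chains, found around vessels and in Descemet's membrane of the eye, differed from each other. Col8a2 was 3813 ± 583 at E13, 18626 ± 3215 at E18, 4227 ± 720 at Wk4 and 15948 ± 61 in recombined tissue. It rose by 2.20 ± 0.15 (adjusted p = 1.36e-07) and fell again (-2.07 ± 0.15, adjusted p = 2.94e-08), and recombined tissue differed from E18 by -0.20 ± 0.17 (adjusted p = 0.409). Col8a1 read 416, 323, 90.1 and 282 at E18 and 2434 and 2647 in recombined tissue (2.39 ± 0.34, adjusted p = 0.000108), with 1045 ± 348 at E13 and 462 ± 280 at Wk4.

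Transmembrane collagens are anchored in the cell surface. Of the 4 measured, 3 were tested and 2 fell from E18 to Wk4, against 5.43% of all tested probe sets. Col25a1 read 3326, 3125 and 2871 at E13, 952, 1310, 1143 and 1116 at E18, 137, 240 and 18.6 at Wk4, and 2356 and 1724 in recombined tissue. It fell from E18 to Wk4 (-1.83 ± 0.20, limma adjusted p = 1.67e-06), and the recombined arrays lay between E13 and E18. Col13a1, a collagen of cell adhesion sites, went from 5010 ± 722 at E13 to 3020 ± 328 and then 518 ± 59.3 at Wk4 (-2.06 ± 0.24 for the later step, adjusted p = 4.08e-06). Its recombined arrays read 647 and 2072, lower than E13 by -1.84 ± 0.29 (adjusted p = 0.000225), but by -1.16 and not called without recombined replicate 1. Col23a1 was between 643 ± 301 and 1409 ± 416 and was called in none of the 6. Col26a1 fell from 6141 ± 1828 at E18 to 1019 ± 236 at Wk4 (-2.29 ± 0.24, adjusted p = 1.52e-06), with 4171 ± 1186 in recombined tissue. Col7a1, the anchoring fibril of skin, read 1012 and 988 in recombined tissue and up to 882 in the kidney, and was called in none of the 6.

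The 6 genes not tested were Col5a3, Col10a1, Col11a2, Col17a1, Col19a1 and Col20a1. Their signals lay mostly under the 40th percentile: Col19a1 between 17.7 and 105, Col20a1 between 26.6 and 258, Col17a1, the hemidesmosome collagen, between 29.5 and 397, and Col10a1, of hypertrophic cartilage, between 65.5 and 660. Col11a2 read 580 and 713 in recombined tissue and at most 501 in the kidney, and Col5a3 read 888 and 251 against at most 273.

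**Figure D5:**
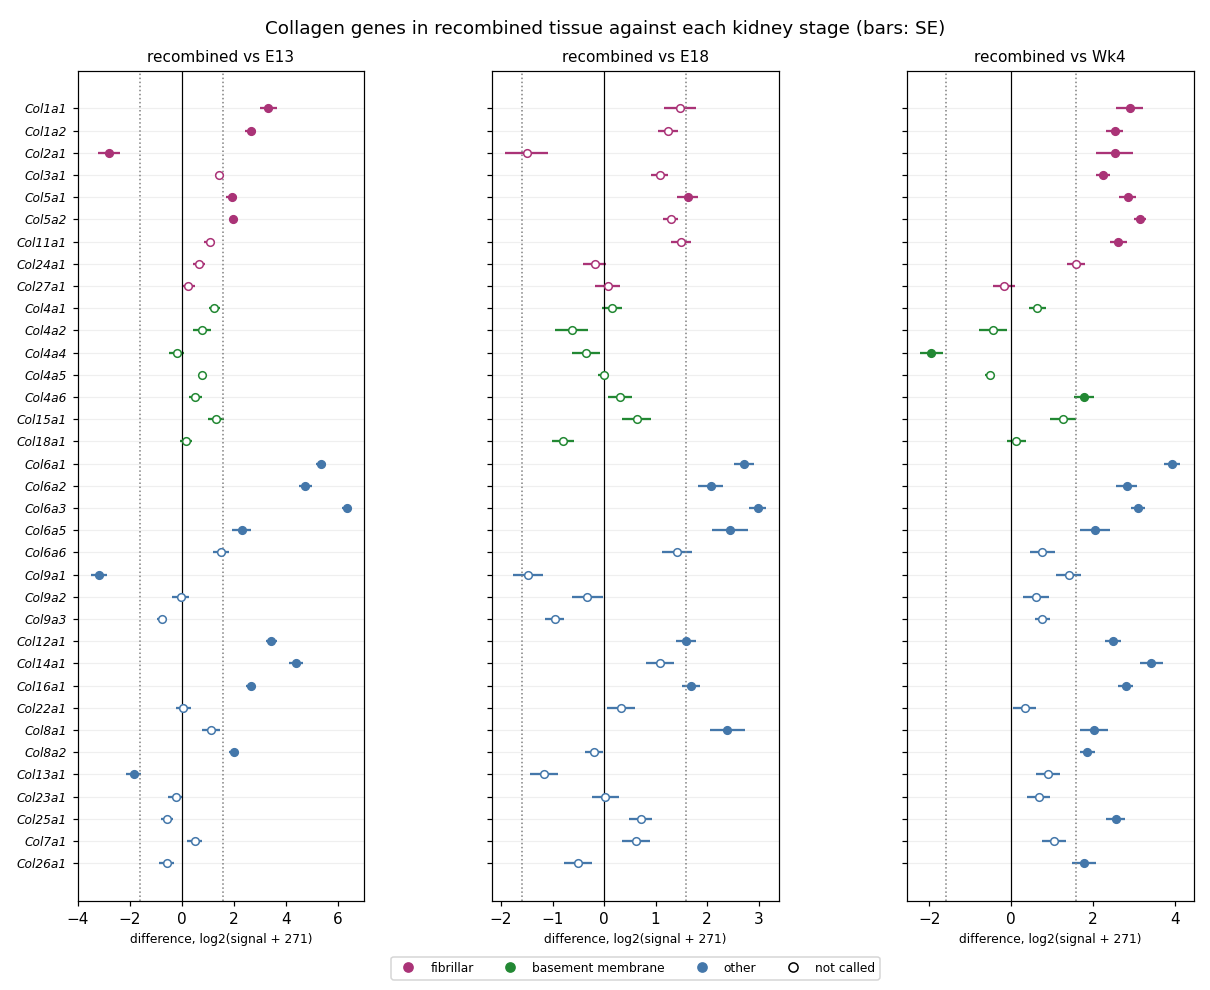
Difference between recombined tissue and E13, E18 or Wk4 kidney for the 35 tested collagen genes, on the log2(signal + 271) scale with SE bars; filled points were called, dotted lines mark 3-fold, and the horizontal scale differs between panels. Col6a3 lies farthest right against E13 and E18 (6.34 and 2.98) and Col6a1 against Wk4 (3.93), basement membrane genes (green) lie between -0.80 and 0.63 against E18, and Col2a1 and Col9a1 lie left of 0 against E13 and E18.

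Genes that make or bind collagen, 32 in all, were read from lists. The lists held hydroxylases and glycosyltransferases, folding and export factors, processing enzymes, crosslinkers and receptors. From E13 to E18 1 of 32 rose, a share near the 1.93% of all tested probe sets. From E18 to Wk4 5 fell (5.43% of all), and from E13 to Wk4 1 rose and 5 fell (9.39% and 8.46% of all). Recombined tissue had 9 higher than at E13 (3.95% of all), 5 than at E18 (2.73%) and 16 than at Wk4 (7.88%). The median difference of the 31 tested was 1.08 against E13, 0.85 against E18 and 1.60 against Wk4. Lox, the lysyl oxidase that starts crosslinks, read 396, 385 and 398 at E13, 2649, 7630, 3288 and 3015 at E18, 2225, 2551 and 2371 at Wk4, and 29754 and 15210 in recombined tissue. Its difference from E13 was 2.61 ± 0.29 at E18 (adjusted p = 1.54e-05) and 5.02 ± 0.35 in recombined tissue (adjusted p = 1.42e-07), with no overlap of recombined and kidney arrays. Plod2, which hydroxylates lysines for crosslinks, averaged 29837 ± 2951 in recombined tissue against 7468 ± 1993 at E18 (1.99 ± 0.20, adjusted p = 5.86e-06). P4ha3, a prolyl hydroxylase subunit, went from 2290 ± 386 at E18 to 76 ± 19.7 at Wk4 (-2.87 ± 0.16, adjusted p = 1.75e-09) and was 9416 ± 1275 in recombined tissue. Pxdn, the peroxidase that crosslinks type IV collagen, fell from E18 to Wk4 (26480 ± 1696 to 4800 ± 786, -2.41 ± 0.11, adjusted p = 2.56e-10). Itga11, an integrin subunit that binds fibrillar collagen, averaged 3151 ± 874 in recombined tissue and 237 ± 83.4 or less in the kidney groups. It passed the filter through the recombined arrays alone, so its calls, which the counts above include, are no support for a difference. The Itga11 difference from E18, 2.95, is given with no test.

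Several lists of cell type markers also differed between recombined tissue and the kidney, some higher and some lower. Of all tested probe sets, 3.95% were called higher in recombined tissue than at E13, 2.73% than at E18 and 7.88% than at Wk4. The share called lower than at E18 was 1.67%. In recombined tissue 7 of 9 stromal and fibroblast markers exceeded E13, 4 exceeded E18 and 5 exceeded Wk4, and their summed signal was 272447 to 272472 there. It was 57111 to 72010 at E13, 82736 to 97992 at E18 and 50145 to 59355 at Wk4. All 8 macrophage markers were higher than at E13 and 7 than at E18, with sums of 118836 to 204131 against 6438 to 8070 and 17530 to 20794, and 40096 to 44263 at Wk4. Skeletal muscle markers summed to 6252 to 8249 in recombined tissue and to at most 3312 in the kidney. The 2 of 7 called higher than at E13, Myh3 and Acta1, passed the filter through the recombined arrays alone. The calls of Myh3 and Acta1 are therefore no support for a difference. Against E18, 3 of 7 were called higher, these 2 and Myog, which did not pass the filter through the recombined arrays alone. Myog averaged 2395 ± 515 in recombined tissue and 530 ± 112 at E18 (1.73 ± 0.22, limma adjusted p = 5.08e-05). Endothelial markers summed to 5769 to 13199 in recombined tissue and to 23053 to 52588 in the kidney groups, with 5 of 7 lower than at E18. The 3 peripheral glia markers summed to 1386 to 1569 in recombined tissue and to 283 to 1059 in the kidney; 1 of the 3 was tested. The part of these cell types in the collagen values was not tested.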

How the data were processed

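RNA from 12 rat samples was hybridised to Affymetrix arrays, 1 per sample. The authors' deposited values are linear intensity signals per probe set. Per the submitters' processing notes the software was GCOS; its version was not given in the sources used. Each array's mean without its lowest and highest 2% was 2500, which means that arrays had been scaled and that differing total RNA content could not be seen. Detection calls were not used. The 31042 probe sets without the 57 controls were analysed.

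Values were taken as log2(signal + 271), with the pseudocount at the 25th percentile of the deposited table; this shrinks differences between low signals. To pass the filter a probe set had to exceed the 40th percentile of 2 or more arrays, which 22599 did. All 12 arrays entered a single model in limma 3.58.1 (R 4.3.3; lmFit, eBayes with a trend; 8 residual degrees of freedom), two-sided, and p-values were adjusted by Benjamini-Hochberg across those 22599. The steps were tested on simulated data. Symbols came from the platform annotation and promoters from RefSeq (GRCr8). No identical arrays were found, and array number limits precision.

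The genes given array by array were Col6a3, Col6a1, Col2a1 and Col4a4 and, among called genes, up to 5 fibrillar, 5 basement membrane and 8 other genes with the widest range of group means; a few more were given by array as examples after their values were seen. The members and lists were chosen with earlier results of these data known. Alternatives were the pseudocount, scaling, filter, probe set choice, array set, replicate block and leaving out arrays. Replicate numbers did not pair arrays: 1 of 15 same-numbered pairs across groups had a correlation of deviations over 0.1.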

Additional observations from a re-analysis of the deposited data

Results flagged for a closer look

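Among the 4 E18 arrays, the gap between the extreme array and its nearest neighbour was tested for each of the 41 genes against Dixon's 95% critical value, which chance passes in about 1 of 20 groups. It was passed 3 times. E18 replicate 4 was low for Col2a1 (6674 against 9283 to 9477; the gap was 0.931 of the range) and for Col4a2 (10769 against 20668 to 21818; 0.896 of the range). E18 replicate 3 was high for Col5a3 (273 against 35.1 to 47.5; 0.948 of the range), a gene under the filter on low signals.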

How the results depend on the processing

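Of 70 called differences, 46 kept their call and direction under all 20 alternatives, and none of the 70 changed direction. With 4 times the pseudocount 22 lost their call, and the counts became 0 higher and 6 lower for Wk4 against E18, 1 higher for Wk4 against E13, 3 higher for recombined tissue against E18 and 0 lower against Wk4. With no pseudocount all 70 were kept, and 2 were lower for E18 against E13, 8 for Wk4 against E13 and 1 for recombined tissue against E18. With the embryonic array set as a covariate 4 calls were lost, 2 genes were lower for E18 against E13 and 1 for recombined tissue against E18. Median centring, chosen after seeing the data, lost 3 calls and gave 5 higher and 1 lower for recombined tissue against E18. Quantile normalization and no filter kept all 70, and averaging a gene's probe sets lost 5. The replicate block lost 2 calls and gave 1 lower for recombined tissue against E18; same-numbered arrays share only a number. The cause of these moves was not tested.

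Leaving out each array in turn gave, for E18 against E13, 7 to 9 higher and 1 to 1 lower; for Wk4 against E18, 0 to 1 and 10 to 11; for Wk4 against E13, 3 to 4 and 5 to 7. For recombined tissue it gave 12 to 14 higher and 2 to 3 lower against E13, 6 to 9 and 0 to 3 against E18, and 19 to 20 and 1 to 1 against Wk4. The 3 lower against E18 came without recombined replicate 2, and 1 came without E18 replicate 4. Genes with both recombined arrays above all kidney arrays numbered 16 to 18, and 0 to 0 lay below. With an array of recombined tissue left out, the lone array is assumed to vary like the other groups. Recombined tissue has 2 arrays, which limits its precision, and signals under the 40th percentile carry little precision.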
